A study of Saccharomyces cerevisiae with 5 samples.

Results

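The 10 genes described here encode enzymes with which Saccharomyces cerevisiae removes superoxide and peroxides: the cytosolic catalase, the mitochondrial superoxide dismutase, peroxiredoxins, cytochrome c peroxidase and parts of the thioredoxin system. They were chosen by name, as the rows of the deposited table whose gene column reads CTT1, SOD2, TSA1, TSA2, PRX1, AHP1, CCP1, TRX2, TRR1 or TRR2, out of 5009 gene names in that column. The choice was made with earlier results of these data known, so shares of all genes beside member counts are a description and no test. All 10 reached 10 CPM (reads per 1000000) in at least 1 library, as did 4904 genes in all. CTT1 did so in the BY_DEH+ libraries alone, so its lower level in BY_DEH++ is partly built into that limit.

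Capped 5′ ends of RNAs were sequenced by cap analysis of gene expression (CAGE), so that each read marks a transcription start and levels do not scale with gene length. Cultures of 10 mL were grown at 30 °C on 1% (w/v) of a single carbon source. The strain BY_DEH+ was grown in DEH (4-deoxy-L-erythro-5-hexoseulose uronate, an alginate-derived sugar acid) for 3 days, from an optical density (OD600) of 0.2 to 0.63, and in glucose overnight, from 0.05 to 0.91. The strain BY_DEH++ was grown in DEH for 2 days, from 0.05 to 0.55, in glucose overnight, from 0.05 to 0.95, and in mannitol for 1 day, from 0.02 to 0.79. The labels describe both strains by name alone and give no allele or construct. Each of these 5 groups holds 1 library, so replicate error is unknown and no p-value is given. Time in culture, density and medium cannot be told apart. CPM are shares of a library, so less RNA per cell would not be seen. The strains in DEH likewise differ in time and starting density.

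Reads per library, recovered from the steps between low values, ranged from 9430000 to 19890000. At 10 CPM the 95% Poisson interval was 8.06 to 12.2 CPM in the shallowest library. All intervals here cover counting error only. In the comparisons, a gene is called higher or lower at 2-fold or more in the ratio of CPM + 1. DEH over glucose had a median log2 ratio over the 4904 genes of 0.12 in BY_DEH+ and -0.11 in BY_DEH++. This median stood at -0.46 when mannitol was set against glucose and at 0.32 when DEH was set against mannitol. BY_DEH++ over BY_DEH+ had a median of -0.22 in DEH and -0.05 in glucose. Median-of-ratios scaling brought these medians to 0.02, -0.02, -0.04, -0.01, -0.002 and -0.02, in the same order. Calls that this scaling ends are named beside the result.

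Superoxide leaks from the respiratory chain and is turned into hydrogen peroxide by superoxide dismutases. Catalases split hydrogen peroxide without a reductant, whereas peroxiredoxins reduce it through a reactive cysteine that thioredoxin restores, and thioredoxin is in turn reduced by thioredoxin reductase with NADPH. In budding yeast many of these genes are known targets of the peroxide-responsive factor Yap1, and CTT1 is a known target of the general stress factors Msn2 and Msn4, which bind the stress response element.

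The sequences just upstream of the start clusters are shown for 6 genes that differ by 2-fold or more in a comparison below and that together hold each motif found. Each is the 300 bases that end at the upstream edge of the main start cluster near the coding sequence, on the gene's strand, 5′ to 3′, from the RefSeq R64 genome. Capitals mark 3 motifs on either strand: TTANTAA, a form of the Yap1 site, AGGGG, the stress response element, and CCAAT, the box bound by the Hap2/3/4/5 complex.
TRX2 (chrVII:913334-913633, minus strand): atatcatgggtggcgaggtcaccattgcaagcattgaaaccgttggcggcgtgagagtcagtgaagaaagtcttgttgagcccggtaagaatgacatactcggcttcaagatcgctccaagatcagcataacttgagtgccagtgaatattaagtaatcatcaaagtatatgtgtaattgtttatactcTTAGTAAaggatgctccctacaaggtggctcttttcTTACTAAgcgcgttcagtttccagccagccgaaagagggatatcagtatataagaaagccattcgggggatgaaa
SOD2 (chrVIII:123708-124007, minus strand): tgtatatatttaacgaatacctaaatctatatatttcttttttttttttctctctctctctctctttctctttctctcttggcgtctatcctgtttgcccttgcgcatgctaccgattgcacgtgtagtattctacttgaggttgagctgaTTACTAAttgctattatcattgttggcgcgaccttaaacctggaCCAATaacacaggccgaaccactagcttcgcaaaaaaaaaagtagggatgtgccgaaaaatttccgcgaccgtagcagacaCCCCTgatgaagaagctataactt
AHP1 (chrXII:368295-368594, plus strand): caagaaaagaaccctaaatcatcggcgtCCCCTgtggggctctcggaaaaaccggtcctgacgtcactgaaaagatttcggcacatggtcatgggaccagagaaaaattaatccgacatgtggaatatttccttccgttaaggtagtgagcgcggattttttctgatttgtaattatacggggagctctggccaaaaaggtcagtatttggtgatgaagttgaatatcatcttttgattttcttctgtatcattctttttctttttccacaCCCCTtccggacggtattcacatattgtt
TSA2 (chrIV:1365803-1366102, minus strand): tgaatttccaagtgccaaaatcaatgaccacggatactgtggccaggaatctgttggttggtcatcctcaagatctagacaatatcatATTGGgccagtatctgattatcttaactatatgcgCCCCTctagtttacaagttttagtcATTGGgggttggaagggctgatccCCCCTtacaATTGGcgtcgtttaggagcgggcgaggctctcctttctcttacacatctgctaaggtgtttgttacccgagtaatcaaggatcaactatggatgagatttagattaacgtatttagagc
CTT1 (chrVII:654287-654586, plus strand): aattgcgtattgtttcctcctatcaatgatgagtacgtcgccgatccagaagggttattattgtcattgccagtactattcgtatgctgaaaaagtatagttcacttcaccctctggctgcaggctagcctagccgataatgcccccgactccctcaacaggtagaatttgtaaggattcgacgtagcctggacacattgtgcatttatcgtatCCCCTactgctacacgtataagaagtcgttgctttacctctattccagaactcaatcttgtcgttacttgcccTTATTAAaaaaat
TRR2 (chrVIII:325263-325562, plus strand): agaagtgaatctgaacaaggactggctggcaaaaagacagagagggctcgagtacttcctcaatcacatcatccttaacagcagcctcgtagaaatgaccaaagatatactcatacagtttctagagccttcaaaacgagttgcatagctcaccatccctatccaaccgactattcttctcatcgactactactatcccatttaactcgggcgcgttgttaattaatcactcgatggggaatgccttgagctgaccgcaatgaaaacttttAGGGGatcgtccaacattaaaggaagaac
The far part of the TRX2 window lies in the coding sequence of YGR210C, and that of TRR2 in YPT35.

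The stress response element was found in 7 of the 10 windows, those of CTT1, SOD2, TSA2, PRX1, AHP1, CCP1 and TRR2, against 23.5% of 5262 such windows across the genome. TTANTAA was found in 4 windows, those of CTT1, SOD2, TRX2 and TRR1, against 17.4% of all. The middle base was C in SOD2, G or C in TRX2, T in CTT1 and A in TRR1. The TRX2 window held 2 matches, ending 105 and 69 bases before the cluster, and the TRR1 window held 2, ending 219 and 139 bases before it. CCAAT was found in 4 windows, those of SOD2, TSA2, PRX1 and CCP1, against 42.6% of all, and TSA2 held 3 matches. A Hap1 site was in none of the 10 windows and in 0.342% of all. No match overlapped a match to another motif in these 10 windows. These counts describe letters in a window and no binding was measured.

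**Figure D1:**
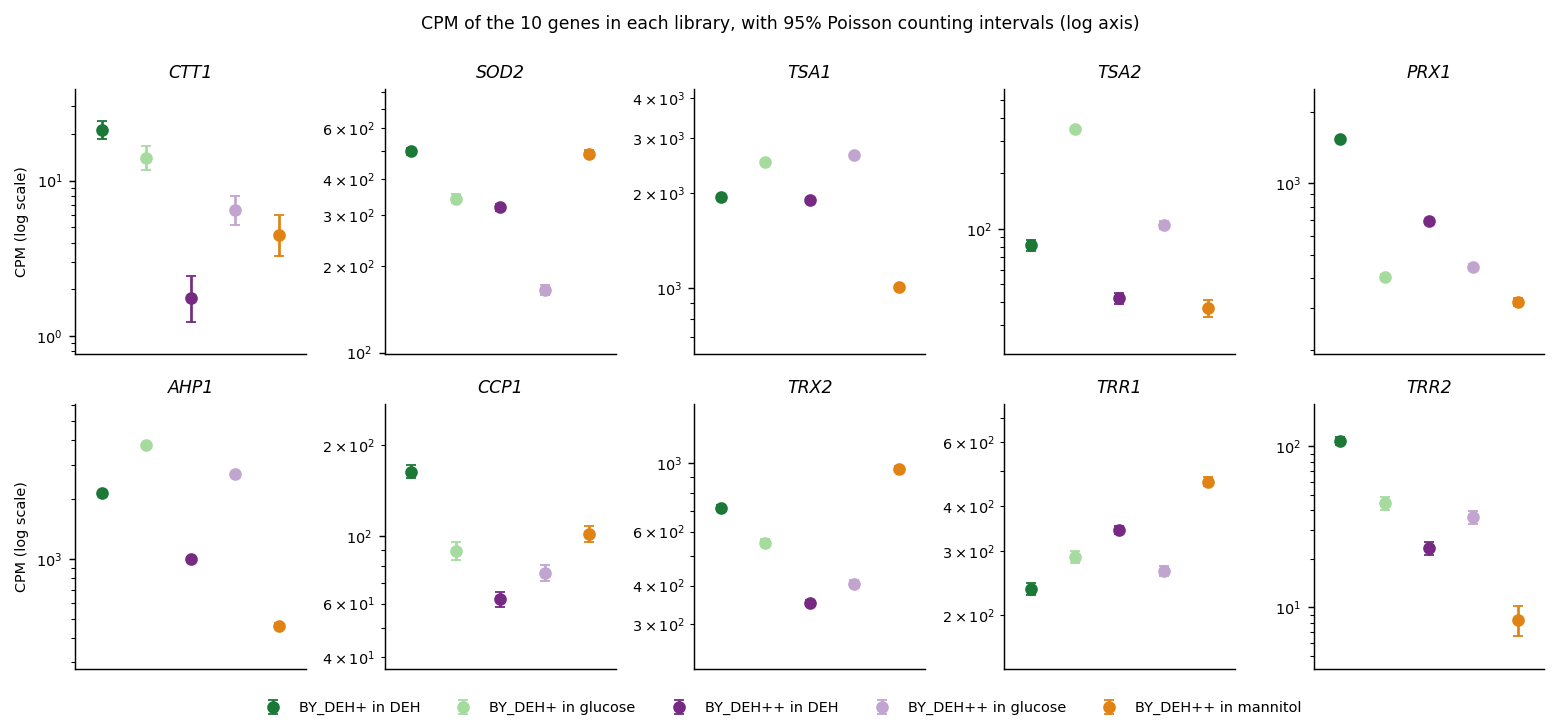
CPM of each gene (log axis) in the 5 libraries; points are single libraries and bars are 95% Poisson counting intervals. AHP1 and TSA2 are highest in the glucose library of BY_DEH+ and lowest in mannitol, whereas TRX2 and TRR1 are highest in mannitol.

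The 10 genes differed widely in level. Their sum in BY_DEH+ was 7456 CPM (DEH) and 8363 CPM (glucose), and in BY_DEH++ 4742.5 CPM (DEH), 6825 CPM (glucose) and 3849 CPM (mannitol). Of this sum, AHP1 and TSA1 made up 75.1% and 77.9% in glucose, 55.0% and 61.3% in DEH and 38.1% in mannitol. Without these genes the other 8 summed to 3357.5, 2079.9, 1834, 1505.6 and 2383 CPM in the same order, so that the summed level was higher in glucose only through AHP1 and TSA1.

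AHP1 (YLR109W, chromosome XII, 368781 to 369311) encodes a peroxiredoxin that acts best on alkyl hydroperoxides. BY_DEH+ held 3769 CPM of it (glucose) and 2148 CPM (DEH), and BY_DEH++ held 2673 CPM (glucose), 998 CPM (DEH) and 459 CPM (mannitol). In both strains glucose was the highest medium, and no neighbouring levels in this order overlapped in their counting intervals. Mannitol was 5.82-fold lower than glucose (95% counting interval 5.65 to 6.003), DEH 2.68-fold lower in BY_DEH++ (2.63 to 2.73) and 1.75-fold lower in BY_DEH+ (1.73 to 1.78).

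TSA1 (YML028W, chromosome XIII, 220138 to 220728) encodes the main cytosolic peroxiredoxin. Its levels were 2514 CPM (glucose) and 1951 CPM (DEH) for BY_DEH+, against 2646 CPM (glucose), 1911 CPM (DEH) and 1008 CPM (mannitol) for BY_DEH++. The DEH libraries of the strains overlapped in their intervals. Mannitol stood apart, 2.63-fold below glucose (2.57 to 2.68), with a log2 ratio of -1.39 that became -0.96 under median-of-ratios scaling and so was no longer called.

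TSA2 (YDR453C, chromosome IV, 1365072 to 1365662), the stress-inducible paralogue of TSA1, was the member with the largest difference between strains in glucose. In BY_DEH+ TSA2 reached 346 CPM (glucose) and 81.2 CPM (DEH), and in BY_DEH++ 105 CPM (glucose), 41.9 CPM (DEH) and 37.0 CPM (mannitol). Glucose was again the higher medium in each strain, and the DEH and mannitol levels of BY_DEH++ overlapped in their intervals. TSA1 exceeded TSA2 by 7.27-fold (7.01 to 7.54) for BY_DEH+ in glucose and by 24.0 to 45.6-fold in the other 4 libraries. The 50 bases that follow each main cluster's midpoint were found at 1 place in the genome for every member, TSA1 and TSA2 included.

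PRX1 (YBL064C, chromosome II, 100371 to 101156) encodes the mitochondrial peroxiredoxin. PRX1 levels were 1533 CPM (DEH) and 405 CPM (glucose) in BY_DEH+, then 692 CPM (DEH), 447 CPM (glucose) and 318 CPM (mannitol) in BY_DEH++. DEH was the highest medium in both strains, by 3.78-fold over glucose in BY_DEH+ (3.65 to 3.92) and by 1.55-fold in BY_DEH++ (1.502 to 1.597). The table gives both main PRX1 clusters to SEF1 as well, the gene downstream. A cluster past the end of the PRX1 coding sequence (chromosome II, 100132 to 100186) held 7.22% to 16.8% of its CPM, and the cluster at the coding start alone gave DEH over glucose ratios of 4.03 and 1.42.

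SOD2 (YHR008C, chromosome VIII, 122889 to 123590), the manganese superoxide dismutase of the mitochondrial matrix, was lowest in glucose within BY_DEH++. It stood at 165 CPM there, against 318 CPM in DEH and 488 CPM in mannitol, while BY_DEH+ held 341 CPM (glucose) and 498 CPM (DEH). The highest levels, of BY_DEH+ in DEH and BY_DEH++ in mannitol, overlapped in their intervals. Mannitol exceeded glucose 2.96-fold (2.82 to 3.11) and DEH exceeded glucose 1.93-fold in BY_DEH++ (1.84 to 2.03) and 1.46-fold in BY_DEH+ (1.40 to 1.53). SOD1, the copper and zinc enzyme of the cytosol, did not share this order, with 1963 CPM (glucose) and 1943 CPM (DEH) in BY_DEH+ and 1782 CPM (glucose), 1040.4 CPM (DEH) and 1470.3 CPM (mannitol) in BY_DEH++. SOD1 thus exceeded SOD2 10.8-fold for BY_DEH++ in glucose (10.3 to 11.3) and 3.01 to 5.75-fold elsewhere.

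CCP1 (YKR066C, chromosome XI, 566113 to 567198) encodes cytochrome c peroxidase of the mitochondrial intermembrane space. CCP1 held 164 CPM (DEH) and 89.6 CPM (glucose) in BY_DEH+, and 102 CPM (mannitol), 75.8 CPM (glucose) and 61.95 CPM (DEH) in BY_DEH++. The DEH library was thus the highest of all in BY_DEH+ and the lowest of all in BY_DEH++. DEH over glucose came to a ratio of 1.82 in BY_DEH+ (1.68 to 1.98) and 0.817 in BY_DEH++ (0.752 to 0.889).

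CTT1 (YGR088W, chromosome VII, 654634 to 656322) encodes the cytosolic catalase T and was the least abundant member. Levels in BY_DEH+ were 21.3 CPM (DEH) and 14.0 CPM (glucose), and in BY_DEH++ 6.48 CPM (glucose), 4.49 CPM (mannitol) and 1.76 CPM (DEH). Both BY_DEH+ libraries lay above all BY_DEH++ libraries, and the glucose and mannitol levels of BY_DEH++ overlapped in their intervals. Only 35 reads stood behind the lowest value. CTA1, the peroxisomal catalase, had 878 CPM (DEH) and 6.05 CPM (glucose) in BY_DEH+, against 101 CPM (DEH), 0.68 CPM (glucose) and 7.27 CPM (mannitol) in BY_DEH++. The ratio of CTA1 to CTT1 was therefore 41.2 (36.2 to 47.2) and 57.3 (41.1 to 82.5) in DEH and 0.432 (0.311 to 0.593) and 0.105 (0.046 to 0.208) in glucose, in BY_DEH+ and BY_DEH++.

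TRX2 (YGR209C, chromosome VII, 912913 to 913227) encodes a cytosolic thioredoxin. TRX2 reached 959 CPM (mannitol), 406 CPM (glucose) and 352 CPM (DEH) in BY_DEH++, and 716 CPM (DEH) and 552 CPM (glucose) in BY_DEH+. Mannitol exceeded glucose 2.36-fold (2.28 to 2.44) and DEH 2.73-fold (2.64 to 2.81). TRX1, the other cytosolic thioredoxin, stood at 1090.7 CPM in mannitol and at 108 to 165 CPM in the other 4 libraries. TRX2 was 2.69 to 4.999-fold above TRX1 outside mannitol, and 0.879 of it in mannitol (0.856 to 0.903).

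TRR1 (YDR353W, chromosome IV, 1183299 to 1184258), the cytosolic thioredoxin reductase, had the narrowest range of the 10 genes, 0.98 on the log2 scale. TRR1 levels were 466 CPM (mannitol), 343 CPM (DEH) and 264 CPM (glucose) in BY_DEH++, and 288 CPM (glucose) and 236 CPM (DEH) in BY_DEH+. TRR2 (YHR106W, chromosome VIII, 325598 to 326626), its mitochondrial counterpart, had the widest, 3.55. TRR2 levels were 108 CPM (DEH) and 44.2 CPM (glucose) in BY_DEH+, and 36.2 CPM (glucose), 23.3 CPM (DEH) and 8.31 CPM (mannitol) in BY_DEH++. The ratio of TRR1 to TRR2 ran from 2.18 (2.03 to 2.34) for BY_DEH+ in DEH to 56.0 (45.3 to 70.1) in mannitol. These are ratios of all clusters assigned to each gene. In mannitol 90.8% of TRR2 CPM lay in a cluster upstream of YPT35, and 30.0% of TRR1 CPM in a cluster inside its coding sequence. The main clusters at the coding starts held 321 CPM (TRR1) and 0.76 CPM (TRR2, 8 reads) there.

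**Figure D2:**
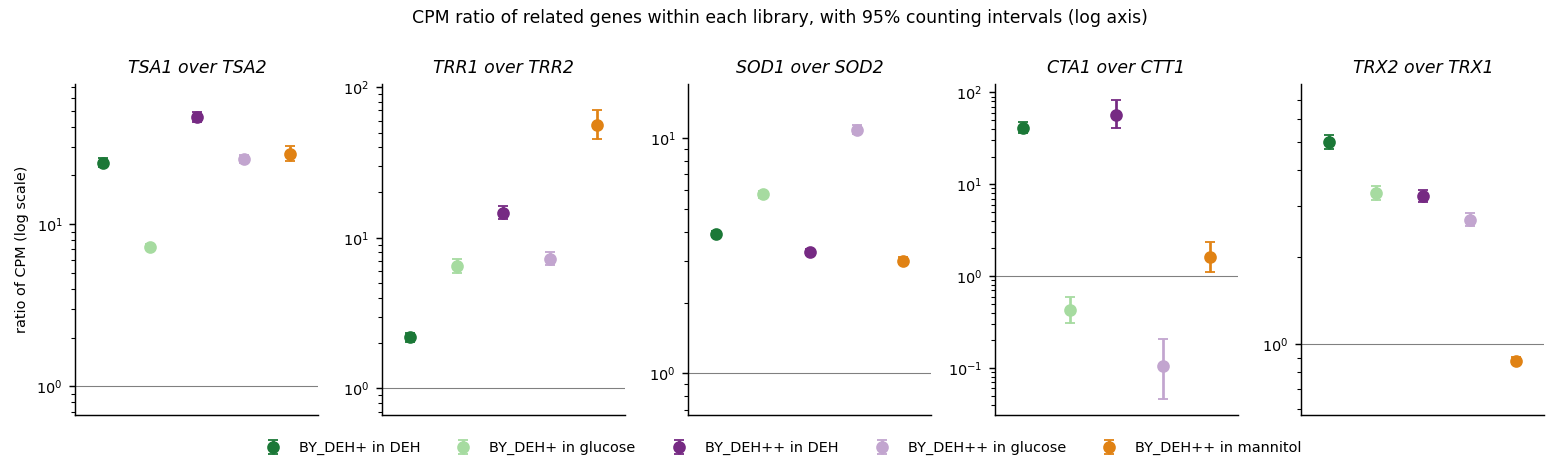
Ratio of CPM of related genes within each library (log axis), with 95% counting intervals; the grey line marks equal levels. The catalase pair crosses the line between DEH and glucose, and the thioredoxin pair lies below it in mannitol alone.

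The members' levels rest on 64 start clusters, of which 14 reached 10 CPM. In CTT1, SOD2, TSA1, TSA2, AHP1 and CCP1 at least 93.2% of the gene's reads began in clusters at the coding start in every library. PRX1, TRX2, TRR1 and TRR2 each had a further cluster of 10 CPM or more. The cluster at the TRR2 coding start (325563 to 325688) gave 83.2 CPM (DEH) and 25.1 CPM (glucose) in BY_DEH+, then 16.5 CPM (glucose), 6.39 CPM (DEH) and 0.76 CPM (mannitol) in BY_DEH++. The rest of TRR2 came mainly from a cluster upstream of YPT35 (324633 to 324691), which gave 24.5 CPM (DEH) and 17.8 CPM (glucose) in BY_DEH+, then 19.7 CPM (glucose), 16.1 CPM (DEH) and 7.55 CPM (mannitol) in BY_DEH++. The table gives both clusters to YPT35 too. Counted at its own coding start, TRR2 was 21.6-fold lower in mannitol than in glucose (10.8 to 50.6, from 8 reads in mannitol) and 13.0-fold lower in BY_DEH++ than in BY_DEH+ in DEH (10.8 to 15.8). In DEH over glucose the same cluster gave ratios of 3.31 in BY_DEH+ (2.87 to 3.84) and 0.387 in BY_DEH++ (0.309 to 0.484).

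TRR1 had a cluster inside its coding sequence (chromosome IV, 1183891 to 1184010), 592 to 711 bases after the coding start, which the table also gives to TRP4. It stood at 140 CPM in mannitol and at 14.2 to 24.0 CPM in the other 4 libraries. It held 30.0% of TRR1 CPM in mannitol (exact binomial interval 28.7% to 31.3%) and 5.36% to 8.86% elsewhere. The cluster at the coding start gave 321 CPM (mannitol), 319 CPM (DEH) and 249 CPM (glucose) in BY_DEH++, so that DEH and mannitol overlapped there (ratio 0.993, 0.952 to 1.04). For TRX2, an upstream cluster (chromosome VII, 914732 to 914913), at the start of YGR210C, held 8.35% of CPM in mannitol and 17.9% to 27.0% elsewhere. Without it mannitol exceeded glucose 2.98-fold (2.87 to 3.10).

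**Figure D3:**
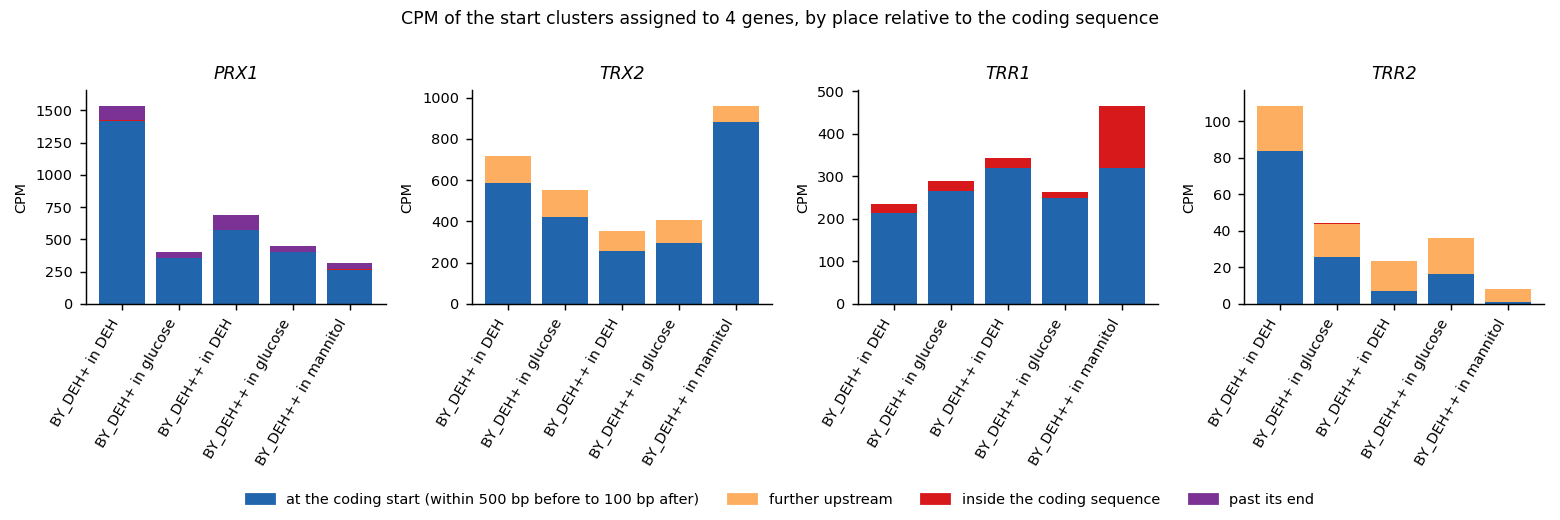
Stacked CPM of the start clusters assigned to PRX1, TRX2, TRR1 and TRR2 in each library, coloured by place relative to the coding sequence. The internal TRR1 cluster is tall in mannitol alone, and little TRR2 signal at its coding start is left in mannitol.

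DEH and glucose were compared within each strain. In BY_DEH+, PRX1 and TRR2 were higher in DEH and TSA2 lower, that is 2 of 10 genes higher and 1 lower, where 10.5% of all genes were higher and 9.97% lower (20.5% in all). TSA2 was 4.26-fold lower (3.95 to 4.596) and TRR2 2.45-fold higher (2.19 to 2.75). In BY_DEH++, no member was higher, and AHP1, CTT1 and TSA2 were lower, 3 of 10 where 10.8% of all genes were lower and 8.69% higher (19.5% in all). CTT1 was 3.68-fold lower (2.46 to 5.62) and TSA2 2.50-fold lower (2.29 to 2.73). CTT1 lay below 10 CPM in both of these libraries, at 1.76 CPM (DEH) and 6.48 CPM (glucose), and was tested only because BY_DEH+ reached that limit. The CTT1 call ended with a pseudocount of 10 CPM, at a log2 ratio of -0.49, and with median-of-ratios scaling SOD2 was called higher at 1.04. TRR2, at -0.61 as summed, was called lower at -1.24 from its main cluster and at -1.10 from the window around its coding start, which made 4 of 10. The members' median log2 ratio was 0.46 in BY_DEH+ and -0.38 in BY_DEH++.

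TSA2, AHP1 and TSA1 had lower levels and PRX1 and SOD2 higher levels in DEH in both strains, and these comparisons share no library. The other 5 members differed in sign between the strains, where 28.0% of all genes did. CTT1 and TRR2 stood farthest apart, with log2 ratios of 0.57 and 1.27 in BY_DEH+ against -1.44 and -0.61 in BY_DEH++. CCP1 and TRX2 were likewise above 0 in BY_DEH+, at 0.86 and 0.38, and below it in BY_DEH++, at -0.29 and -0.21, while TRR1 went from -0.29 to 0.38. PRX1 had the same sign but differed in size, with log2 ratios of 1.92 and 0.63. No test of these differences between strains was made, with 1 library in each group.

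Mannitol and glucose were compared in BY_DEH++. SOD2 and TRX2 were higher in mannitol and AHP1, TRR2, TSA2 and TSA1 lower, 2 and 4 of 10 genes, where 9.89% of all genes were higher and 27.0% lower (36.9% in all). With median-of-ratios scaling 15.8% of all genes were higher and 14.7% lower. TRR2 was 4.36-fold lower (3.46 to 5.54) and TSA2 2.83-fold lower (2.53 to 3.18). TRR1, at a log2 ratio of 0.82, was called higher at 1.25 with that scaling, and 3 members were then higher and 3 lower. The members' median log2 ratio of -0.47 lay next to that of all genes. The labels give the mannitol sample a title of another form than the other 4, so that handling and medium cannot be told apart for it.

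DEH against mannitol uses the same DEH and mannitol libraries as above and so repeats their differences from the other side. TRR2, PRX1 and AHP1 were higher in DEH and TRX2 lower, 3 and 1 of 10, where 20.7% of all genes were higher and 9.07% lower (29.8% in all). With median-of-ratios scaling 11.8% of all genes were higher and 14.6% lower. The PRX1 and AHP1 ratios were 2.18 and 2.17, with log2 ratios of 1.12 for each, and neither was called with median-of-ratios scaling, at 0.79 and 0.78. The TRR2 call ended with a pseudocount of 10 CPM, at a log2 ratio of 0.86. TRX2 was 2.73-fold lower, as given above, and CTT1 was just short of the limit at a log2 ratio of -0.99. With median-of-ratios scaling CTT1 and CCP1 were called lower, at -1.28 and -1.04. TSA2, at 0.17, turned to -0.15 with median-of-ratios scaling.

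**Figure D4:**
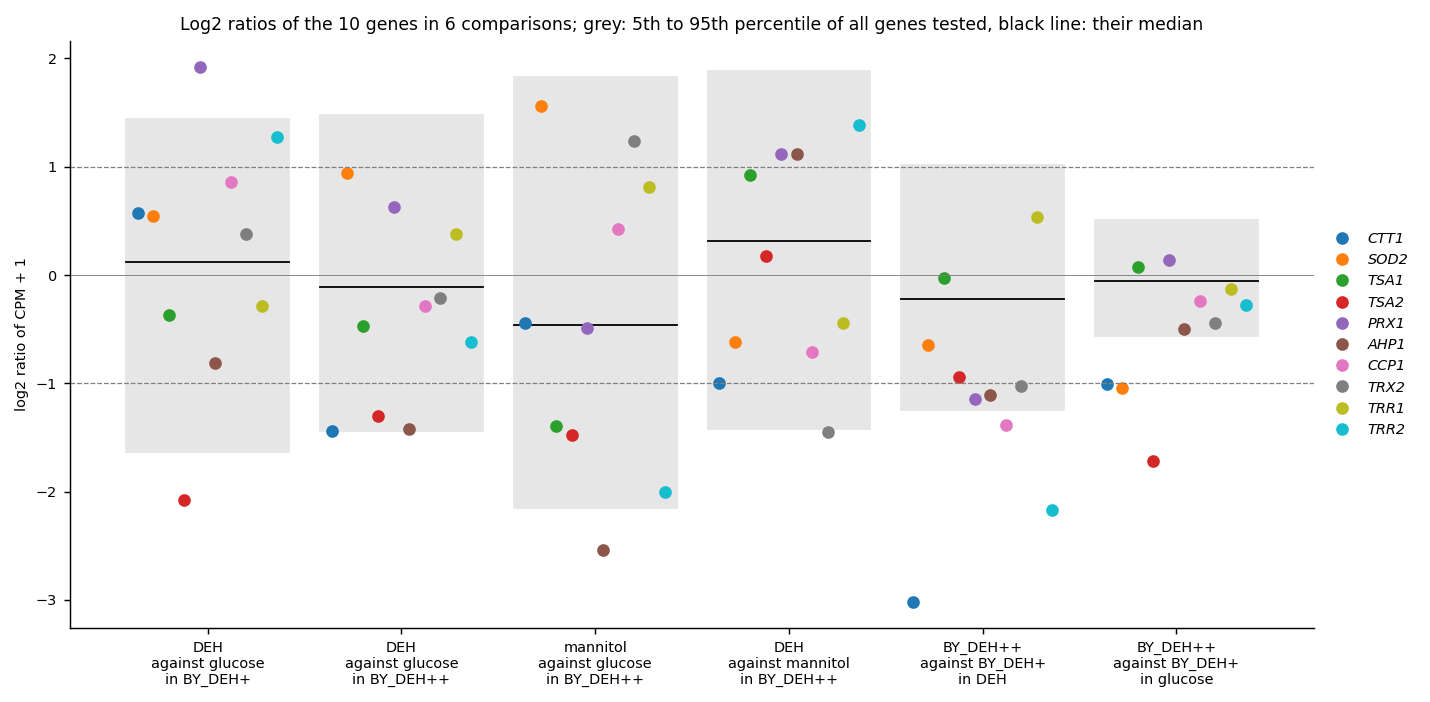
Log2 ratios of CPM + 1 for the 10 genes in 6 comparisons; grey boxes span the 5th to 95th percentile of the 4904 genes, black lines are their medians and dashed lines mark 2-fold. In the comparison of strains in DEH, 6 of the 10 genes lie at or below the lower dashed line and none at the upper.

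The strains were compared in DEH and in glucose. In DEH, 6 of 10 members were lower in BY_DEH++ than in BY_DEH+ and none was higher, where 8.52% of all genes were lower and 5.22% higher (13.7% in all). Without CTT1, whose passing of the 10 CPM limit rested on BY_DEH+, 5 of 9 were lower. The members' median log2 ratio was -1.06 against -0.22 for all genes. CTT1 was 12.1-fold lower (8.45 to 17.8), TRR2 4.64-fold (4.17 to 5.18), CCP1 2.64-fold (2.45 to 2.84), PRX1 2.21-fold (2.16 to 2.27), AHP1 2.15-fold (2.11 to 2.19) and TRX2 2.04-fold (1.97 to 2.10). The log2 ratio of CTT1, -3.01, became -1.41 with a pseudocount of 10 CPM. With median-of-ratios scaling only CTT1, TRR2 and CCP1 of these stayed past 2-fold, where 5.24% of all genes were lower and 8.50% higher. PRX1, AHP1 and TRX2 then stood at log2 ratios of -0.92, -0.88 and -0.80. TSA1 had a ratio of 0.980 (0.963 to 0.996), whose log2 value of -0.03 turned to 0.19 with that scaling, and TRR1 was higher in BY_DEH++ by 1.45-fold (1.39 to 1.52).

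In glucose, TSA2, SOD2 and CTT1 were lower in BY_DEH++, 3 of 10, where 1.12% of all genes were lower and 0.673% higher (1.79% in all). TSA2 was 3.30-fold lower (3.10 to 3.52), SOD2 2.07-fold (1.96 to 2.19) and CTT1 2.16-fold (1.63 to 2.87). CTT1 sat on the limit, with a log2 ratio of -1.004, and was past it no longer with median-of-ratios scaling, at -0.97, upper-quartile scaling, at -0.97, a pseudocount of 10 CPM, at -0.54, or when counted from its main cluster, at -0.91. TSA2 and SOD2 stayed past 2-fold in each of the alternatives tried at that limit. Without CTT1, 2 of 9 were lower. The remaining 7 genes had log2 ratios between -0.50 and 0.14.

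A 4-fold limit left few members. In BY_DEH+ only TSA2 was lower in DEH than in glucose, where 3.47% of all genes were lower and 2.28% higher. In BY_DEH++ none passed in DEH over glucose, where 2.28% of all genes were lower and 3.22% higher. In mannitol over glucose AHP1 and TRR2 were lower, where 6.28% of all genes were lower and 4.22% higher, and TRR2 lay exactly on the limit. With median-of-ratios scaling TRR2 fell short of it. None passed in DEH over mannitol, where 2.32% of all genes were lower and 4.2% higher. Between the strains, CTT1 and TRR2 were lower in DEH, where 1.59% of all genes were lower and 1.18% higher, and CTT1 was not with a pseudocount of 10 CPM. Without CTT1, which reached 10 CPM in BY_DEH+ alone, only TRR2 was lower, and TRR2 fell short of 4-fold with median-of-ratios scaling. No member passed in glucose, where 0.245% of all genes were lower and 0.122% higher.

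The other genes of these pathways were read from lists written from general knowledge, with earlier results of these data known. Shares of all genes beside the list counts are therefore a description and no test. The list counts are given without median-of-ratios scaling. Among 12 other thioredoxin, peroxidase, catalase and superoxide genes, 5 were lower in BY_DEH++ than in BY_DEH+ in DEH and none higher, with a median log2 ratio of -0.93. Of all genes 8.52% were lower and 5.22% higher there, with a median of -0.22. In glucose only CTA1 was lower, by 2.07 on the log2 scale, where 1.12% of all genes were lower. CTA1 reached 10 CPM in the DEH libraries alone, and in glucose it had 6.05 CPM in BY_DEH+ and 0.68 CPM in BY_DEH++. GPX1, a glutathione peroxidase of the phospholipid hydroperoxide kind, had 234 CPM (DEH) and 81.6 CPM (glucose) in BY_DEH+, against 51.5 CPM (DEH), 66.3 CPM (glucose) and 25.5 CPM (mannitol) in BY_DEH++. In DEH over glucose 3 of the 12 were higher in BY_DEH+, where 10.5% of all genes were. In BY_DEH++ 2 were higher and 1 lower, against 8.69% and 10.8% of all genes. In mannitol over glucose 2 were higher and 1 lower, against 9.89% and 27.0% of all genes. CTA1, 1 of the 2 higher, lay below 10 CPM in both of those libraries.

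Of 17 glutathione and glutaredoxin genes, 4 were higher and 2 lower in DEH over glucose in BY_DEH+, and 3 were lower in BY_DEH++. Of all genes 10.5% were higher and 9.97% lower in BY_DEH+, and 10.8% were lower in BY_DEH++. In mannitol over glucose 8 were lower and 1 higher, with a median log2 ratio of -0.56. Of all genes 27.0% were lower and 9.89% higher there, with a median of -0.46. GRX4, a glutaredoxin that takes part in iron regulation, was high in both glucose libraries, with 671 CPM (glucose) and 133 CPM (DEH) in BY_DEH+, then 638 CPM (glucose), 116 CPM (DEH) and 125 CPM (mannitol) in BY_DEH++. GTO3, an omega-class glutathione transferase, had 270.0 CPM (glucose) and 34.7 CPM (DEH) in BY_DEH+, then 306 CPM (glucose), 140 CPM (DEH) and 10.99 CPM (mannitol) in BY_DEH++. Between the strains in DEH, 6 of the 17 were lower in BY_DEH++ and 1 higher, where 8.52% of all genes were lower and 5.22% higher.

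Of 11 regulators, none passed 2-fold between the strains in DEH or in glucose, where 13.7% and 1.79% of all genes did. In DEH over glucose 2 were higher and 1 lower in BY_DEH+, against 10.5% and 9.97% of all genes. In BY_DEH++ 1 was lower, against 10.8% of all genes. In mannitol over glucose 2 were lower, against 27.0% of all genes. MSN4, which encodes a general stress factor, had 152 CPM (glucose) and 35.2 CPM (DEH) in BY_DEH+, then 144 CPM (glucose), 23.1 CPM (DEH) and 43.6 CPM (mannitol) in BY_DEH++. YAP1 itself had 302 CPM (DEH) and 164 CPM (glucose) in BY_DEH+, then 205 CPM (DEH), 188 CPM (glucose) and 105 CPM (mannitol) in BY_DEH++.

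Genes under Msn2 and Msn4 other than CTT1 had the lowest medians among the lists in the comparisons of strains. In DEH 8 of 12 were lower in BY_DEH++ and none higher, with a median log2 ratio of -1.82, and in glucose 7 of 12 were lower, with a median of -1.21. Of all genes 8.52% were lower in DEH and 1.12% in glucose, with medians of -0.22 and -0.05. SSA3, a chaperone of the Hsp70 family, had 359 CPM (DEH) and 57.3 CPM (glucose) in BY_DEH+, then 5.98 CPM (DEH), 3.09 CPM (glucose) and 0.67 CPM (mannitol) in BY_DEH++. HSP12, a small membrane-associated stress protein, had 5172 and 1703 CPM in BY_DEH+, then 392, 330.5 and 62.4 CPM in BY_DEH++, in the same order of media. CTT1 lay in both strain comparisons on the same side as the list medians, though its lower level in BY_DEH++ is partly built into the 10 CPM limit. The same limit holds for SSA3, which reached 10 CPM in BY_DEH+ alone and is counted as lower in both media. GLK1 went the other way in glucose, with a log2 ratio of 0.48. A shared cause was not tested.

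Of 10 other genes listed as Yap1 targets, which the glutathione list shares in part, 3 were lower and 2 higher in BY_DEH++ in DEH, with a median log2 ratio of -0.10, and none passed 2-fold in glucose. Of all genes 8.52% were lower and 5.22% higher in DEH, and 1.79% passed 2-fold in glucose. In mannitol over glucose 6 were lower and none higher, with a median of -1.31. Of all genes 27.0% were lower and 9.89% higher there, with a median of -0.46. In DEH over glucose 3 were higher and 1 lower in BY_DEH+, against 10.5% and 9.97% of all genes. In BY_DEH++ 4 were higher and none lower, against 8.69% and 10.8%. GRE2, a methylglyoxal reductase, had 838 CPM (DEH) and 90.7 CPM (glucose) in BY_DEH+, then 393 CPM (DEH), 64.9 CPM (glucose) and 26.1 CPM (mannitol) in BY_DEH++. FRM2 went the other way in BY_DEH+ and between the strains in DEH. It had 6.45 CPM (DEH) and 59.9 CPM (glucose) in BY_DEH+, then 49.5 CPM (DEH), 40.4 CPM (glucose) and 4.3 CPM (mannitol) in BY_DEH++.

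**Figure D5:**
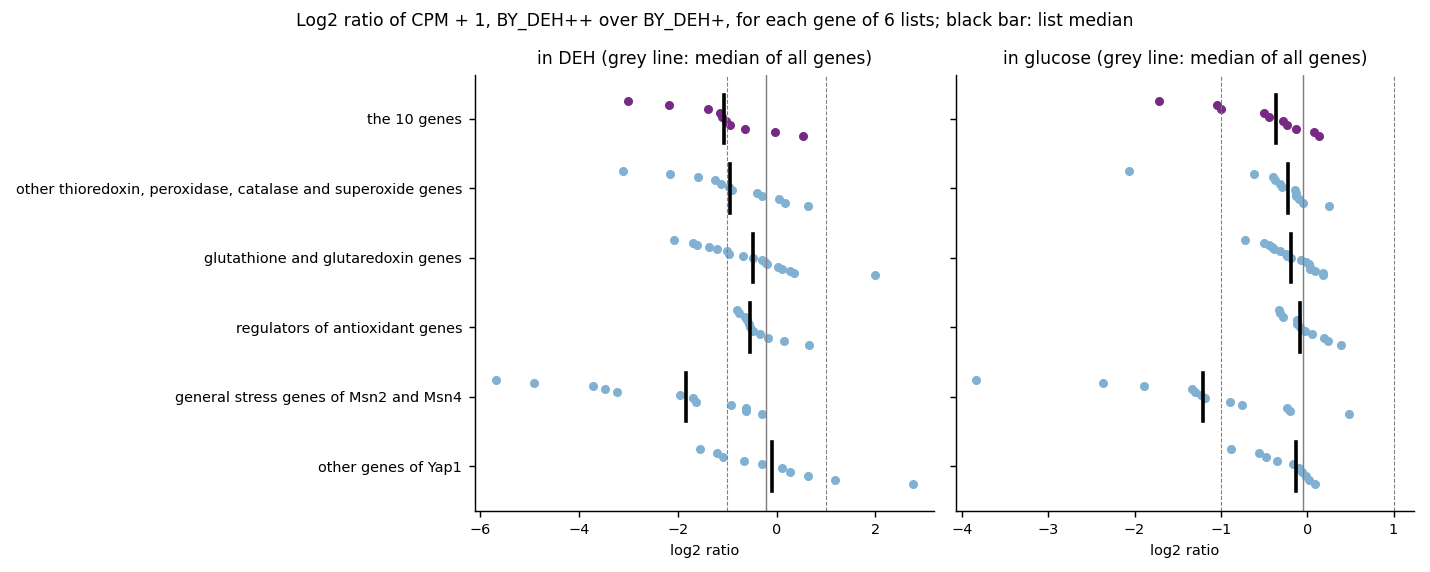
Log2 ratios of BY_DEH++ over BY_DEH+ in DEH and in glucose for every gene of 6 lists; each point is a gene, black bars are list medians, grey lines the median of all genes and dashed lines 2-fold. The 10 genes have a median of -1.06 in DEH, and the Msn2 and Msn4 list lies lowest in both panels.

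For the 3 members with the widest range over the 5 libraries, the genes with the closest profile were found by the root mean square difference of centred log2 values. For TRR2 these were YPT35, which shares its clusters (0.01), ATG36 (0.16) and MET32 (0.20). For TSA2 they were YPS6 (0.31), OMS1 (0.37) and ULI1 (0.38), and for AHP1 they were ATG1 (0.18), GMC1 (0.22) and PAD1 (0.23). Among the members themselves AHP1 and TSA2 were closest to each other, at 0.55, of the pairs that hold TRR2, TSA2 or AHP1. With 5 libraries such closeness describes these libraries and was not tested.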

How the data were processed

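CAGE libraries of 5 cultures, 1 per group, were analysed. Per the labels' protocols, RNA was extracted with acid phenol and chloroform, capped molecules were captured through biotin with a DNAFORM kit, and a NextSeq500 gave the reads. The submitters' processing notes name BWA, HISAT2 and the mouse build mm9 without roles or versions; the cluster names carry yeast R64 sequence names, so RefSeq R64 was used. The clustering tool, filter and gene assignment are not given in the sources used here.

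The deposited values are normalised signal, tags per start cluster scaled by the authors to CPM. They were recorded as signal because clusters given to several genes are repeated: 29960 lines hold 27176 clusters. A gene's level was the sum of the distinct clusters with its name; nested clusters added at most 3.45% to a member. The CPM of 1 read was taken as the step between low values (all values whole within 0.15 of a read), and intervals (95%, Poisson, exact conditional binomial or exact binomial) came from these reads. The lowest listed values were 5 to 10 reads. Cluster starts were shifted by 1 base, after which 65.7% of 204 clusters of 1 base began on a purine after a pyrimidine, against 7.84% unshifted.

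No count test was run. Ratios used CPM + 1, genes with 10 CPM in at least 1 library, and a 2-fold limit. Alternatives were pseudocounts of 10 and 0.5 CPM, median-of-ratios and upper-quartile scaling, a 4-fold limit, no filter, the top cluster, and clusters from 500 bp before to 100 bp after the coding start. Named genes were all members, up to 3 genes a list and comparison past 4-fold (SOD1 and YAP1 were added after their values were seen), and, for the 3 members of widest range, the 3 closest profiles. Members and lists were chosen with earlier results of these data known. Calls and intervals were tested on simulated data. Python 3.11.15, pandas 2.3.3, numpy 2.4.6 and SciPy 1.17.1 were used.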

Additional observations from a re-analysis of the deposited data

Results flagged for a closer look

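In 5 of the 10 genes DEH over glucose had opposite signs in the strains, with both counting intervals off a ratio of 1, as in 13.7% of all genes tested. CTT1, among these, reached 10 CPM in the BY_DEH+ libraries alone. The difference of the log2 ratios, BY_DEH++ minus BY_DEH+, was -2.01 for CTT1, -1.89 for TRR2, -1.15 for CCP1, -0.58 for TRX2 and 0.66 for TRR1, where the median over all genes was -0.19. These differences were not tested, since each group holds 1 library, and culture time and starting density also differed between the DEH cultures.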

How the results depend on the processing

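Of 360 member log2 ratios under the alternatives, 356 kept their direction and 26 crossed the 2-fold limit. The 4 that turned were TSA1 between the strains in DEH and TSA2 for DEH over mannitol, under both scalings, and none of these was called. Median-of-ratios scaling gave 1 member higher for DEH over glucose in BY_DEH++ (0 as reported), 3 lower for BY_DEH++ over BY_DEH+ in DEH (6 as reported), and 1 higher and 3 lower for DEH over mannitol (3 and 1 as reported). Upper-quartile scaling gave 1 higher and 2 lower for DEH over mannitol, and a pseudocount of 0.5 CPM gave 2 lower there. Between the strains in DEH, upper-quartile scaling ended the AHP1 and TRX2 calls, at log2 ratios of -0.98 and -0.90. At a 4-fold limit no member was higher in any comparison. At that limit 1 was lower for DEH over glucose in BY_DEH+, 2 for mannitol over glucose and 2 for the strains in DEH, and 0 were lower for DEH over glucose in BY_DEH++, for DEH over mannitol and for the strains in glucose. Counting at the coding start gave 4 lower for DEH over glucose in BY_DEH++ (3 as reported), and both scalings gave 2 lower for the strains in glucose (3 as reported). The cause of these changes was not tested. CTT1 rests on 35 to 86 reads in BY_DEH++ and the TRR2 start cluster on 8 in mannitol, which limits their ratios. No paired analysis was possible because each group has 1 library and the labels give no replicate numbers.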

Other observations

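On the strand opposite to the members, 3 clusters of 10 CPM or more lay within 2 of the genes. A cluster over the end of TRR1 (chromosome IV, 1184215 to 1184358, minus strand), which the table gives to no gene, gave 37.9 CPM (glucose) and 2.34 CPM (DEH) in BY_DEH+, then 35.6 CPM (glucose), 3.77 CPM (DEH) and 3.73 CPM (mannitol) in BY_DEH++, so that glucose was 16.2-fold higher than DEH in BY_DEH+ (10.8 to 25.4) and 9.45-fold higher in BY_DEH++ (7.39 to 12.2). TRR1 itself differed between these libraries by less than 2-fold. A further cluster opposite the early part of TRR1 (1183465 to 1183589) stood between 18.4 and 37.6 CPM in all 5 libraries. Opposite the end of SOD2 (chromosome VIII, 122898 to 122940, plus strand) a cluster gave 19.3 CPM (DEH) and 6.89 CPM (glucose) in BY_DEH+, then 15.1 CPM (glucose), 8.80 CPM (DEH) and 2.49 CPM (mannitol) in BY_DEH++. It was thus lowest in the mannitol library, where SOD2 was highest within that strain. In BY_DEH+, by contrast, both were higher in DEH than in glucose, SOD2 with 498 against 341 CPM. No relation between them was tested.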
